A study of Mus musculus with 9 samples.

Results

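The maturation of the mouse cornea between postnatal day 10 (P10) and adulthood was examined on 5 of the series' 9 oligonucleotide arrays, 3 titled as adult cornea and 2 titled as P10 cornea. The adult animals were 7 weeks old, and neither strain nor sex is stated in the labels. Corneas of both ages were trimmed of the limbus, the rim that carries epithelial stem cells, and scraped to enrich the stroma, so that part of the epithelium remained. Each array was hybridised with an independent RNA preparation. The p-values and intervals measure the spread between preparations pooled over all the tissues, lens and tendon included, and not over cornea alone. The 2 lens and 2 tendon arrays, of tissue pooled from animals of 7 weeks, entered the fit to estimate the spread, and their levels are given where a result turns on them. Collagens and proteoglycan core proteins were set aside, so the genes described here are those of the other functions of the tissue. Counts over all genes include both classes.

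The cornea is a transparent connective tissue of flattened fibroblasts, the keratocytes, covered by a stratified epithelium and lined by an endothelium. Mouse eyelids open towards the end of the second postnatal week, so at P10 the surface is still covered. In the following weeks the epithelium stratifies and becomes exposed to air, tears and light, and the keratocytes pass from growth and matrix deposition to quiescence. Imprinted genes, which are expressed from 1 parental copy, include many growth regulators that are silenced in most organs after birth.

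On the deposited expression index, in arbitrary units, array medians lay between 67.6 and 88. The defining markers of corneal epithelium, 6 of 6 on the array, summed to between 14664 and 17591 in the adult and to 15761 and 16746 at P10, so the summed level overlapped between the ages. Krt12 and Aldh3a1 make up most of that sum. Krt14, the basal-layer keratin among the 6, did not overlap, at 1648 and 1375 at P10 and 759, 1067 and 789 in the adult (adjusted p = 0.464 in limma). The spread behind that p-value includes tendon, where Krt14 read 124 and 20.5. The 6 keratocyte markers summed to between 4581 and 5451 in the adult and to 7775 and 7846 at P10, with no overlap. Most of this sum comes from the proteoglycans Dcn, Lum and Kera. The other 3 markers (Aldh1a1, Ptgds and Cd34) summed to 993, 1131 and 985 in the adult and to 1234 and 1305 at P10, and Aldh1a1 and Ptgds overlapped between the ages. Lum was the only 1 of the 6 called, and its call was lost without any 1 array but adult array 1 (adjusted p = 0.0675 to 0.432 in limma). Fewer cells of a type and less RNA per cell cannot be told apart in such bulk preparations. Adult array 1 stood apart in RNA quality, with a 3'/5' signal ratio of 4.69 for the actin control against 1.07 to 2.07 on the other arrays.

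More genes were lower than higher in the adult cornea. Of 8154 probe sets tested, 57 (0.699% of those tested) were higher and 316 (3.88%) were lower in the adult by limma's moderated test at an adjusted p under 0.05. With 1 probe set per gene, 45 of 6109 genes were higher (0.737%) and 230 were lower (3.76%), and the median log2 difference of all genes was -0.13. The 230 include 17 collagens and 5 proteoglycans. The numbers of higher and lower probe sets were 91 and 240 after quantile normalization, 86 and 236 after trimmed mean scaling and 76 and 184 after median centring, so the excess of falls was smaller under these scalings. The P10 arrays carried much of the weight, since 23 probe sets were higher and 85 lower without P10 array 1, and 16 and 68 without P10 array 2. Fold changes below are on the log2(index + 16) scale, with indices below 0 set to 0, and understate differences of low genes. Where an adult index is below 0, as for Dsc3, Kdelr3 and Cdh5, the printed fold depends on that floor and is not reliable.

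**Figure D1:**
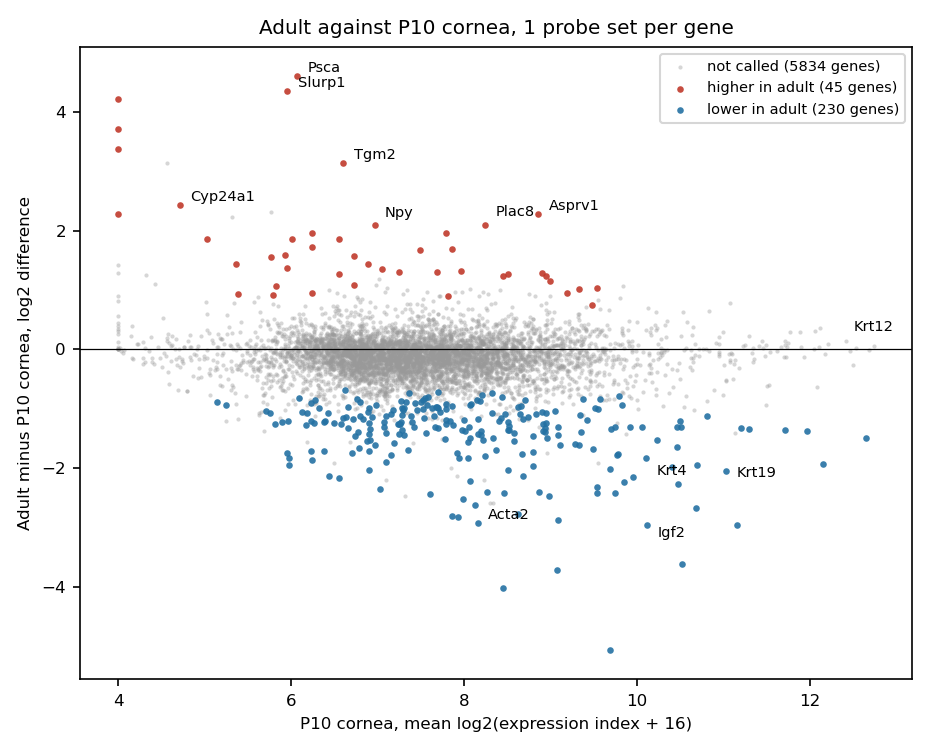
Log2 difference between adult and P10 cornea (vertical axis) against the mean log2(index + 16) at P10 (horizontal axis), 1 point per gene, with the 45 genes higher in the adult in red, the 230 lower in blue and all others in grey. The rises are fewer than the falls, and Krt12 lies near 0 at a high level.

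Single genes of the epithelial surface were among the rises, while the lists of such genes were mostly not called. Of 21 tested genes listed under cornified envelope and epidermal differentiation, 1 was higher (Tgm2) and 0 were lower by limma. This stands beside 0.737% of all genes higher and 3.76% lower. The counts of the list were also 1 and 0 at an unadjusted p under 0.05. Its median log2 difference was -0.16 against -0.13 for all genes. Asprv1, an aspartic protease that cleaves profilaggrin in stratified epithelium, had indices of 309 and 648 at P10 and of 2237, 2251 and 2235 in the adult (4.86-fold, log2 2.28 ± 0.33 SE, adjusted p = 0.00402 in limma). The 3 adult values lay within a narrow range and far above both P10 values. Tgm2, the tissue transglutaminase that crosslinks proteins, read 84.0 and 78.3 at P10 and 1185, 1122 and 446 in the adult (8.83-fold, log2 3.14 ± 0.37 SE, adjusted p = 0.00151 in limma). Every adult array exceeded P10, with adult array 3 the lowest of them. The preparations were enriched for stroma, and which cells carry Tgm2 was not tested.

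Cldn7, a claudin of tight junctions and lateral membranes, rose from 335 ± 24.5 (SD, n = 2) to 824 ± 189 (n = 3; 2.35-fold, adjusted p = 0.0200 in limma). Plac8, a small cysteine-rich protein, rose from 287 ± 20.7 to 1294 ± 237 (4.28-fold, adjusted p = 0.00695 in limma). In lens and tendon Cldn7 was at most 7.26 and Plac8 at most 110.4. Dsc3, a desmosomal cadherin of basal epithelial layers, moved the other way, from 275 and 169 at P10 to -15.0, 44.2 and 21.6 in the adult (7.03-fold lower, adjusted p = 0.00749 in limma). Among 31 junction and adhesion genes tested, Cldn7 was the only one higher and Dsc3, Tjp1 and Cldn1 were lower, beside 0.737% of all genes higher and 3.76% lower. The median log2 difference of the list was -0.12, close to the median of all genes. Perp, an abundant desmosomal membrane protein, was 3390.1 ± 33.7 and 3489 ± 177, a log2 difference of 0.04 with a 95% interval of -0.91 to 0.99. That interval takes in the spread of the lens and tendon arrays. The calls of Cldn7 and Plac8 were lost without either P10 array (adjusted p = 0.0592 to 0.187 in limma), that of Cldn7 also without adult array 1 (0.0690), and that of Dsc3 without P10 array 1 (0.107). The 3 lower junction genes are of mixed reliability, since a second Tjp1 probe set had a log2 difference of -0.06 and the Cldn1 call was lost without adult array 1 or any P10 or tendon array (adjusted p = 0.0505 to 0.265 in limma), as was that of Tjp1 without either P10 array (0.0588 to 0.0623).

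Several enzyme and secreted protein genes were also higher. Cyp24a1 and Npy were picked by the naming rule and not by a list, while Cyp2f2 and Wfdc18 are also members of lists. Cyp24a1, the hydroxylase that inactivates vitamin D, read 11.3 and 9.02 at P10 and 146, 150.2 and 88.2 in the adult (5.39-fold, adjusted p = 0.000603 in limma). It was at most 7.61 in lens and tendon, so that of the 4 groups the adult cornea alone was above 12. Cyp2f2, a cytochrome P450 of xenobiotic metabolism, rose from 78.3 ± 16.6 to 334 ± 108 (3.63-fold, adjusted p = 0.00361 in limma, but 0.0555 without P10 array 2). Npy, the neuropeptide Y gene, rose from 111 ± 30.0 to 529 ± 134 (4.26-fold, adjusted p = 0.00331 in limma, but 0.0522 without P10 array 2). Wfdc18, a small secreted protein with a protease inhibitor fold, read 38.9 and 51.9 at P10 and 159, 169.9 and 172 in the adult (3.00-fold, adjusted p = 0.00390 in limma, but 0.0613 without P10 array 1). Of 45 glutathione, xenobiotic and antioxidant enzymes 2 rose (Cyp2f2 and the microsomal glutathione transferase Mgst3) and 1 fell (the peroxiredoxin Prdx4). Of 22 mucosal and antimicrobial genes 2 rose (Wfdc18 and the iron-binding Ltf) and 2 fell (the defensin Defb1 and the trefoil peptide Tff2), so neither list moved one way, beside 0.737% of all genes higher and 3.76% lower. The calls of Mgst3, Prdx4, Ltf, Defb1 and Tff2 were each lost without either P10 array and without other arrays in turn, those of Defb1 and Tff2 without any 1 of the 9 arrays (adjusted p = 0.0504 to 0.497 in limma).

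The Ly6 genes, small proteins with a three-finger fold, were the list with the largest share of rises, 3 of 10 tested, beside 0.737% of all genes higher. Psca read 52.0 and 50.1 at P10 and 1203, 2236 and 1580.5 in the adult (24.4-fold, adjusted p = 4.52e-05 in limma). Slurp1, a secreted member, read 108 and 15 against 1077, 1532 and 1198 (20.5-fold, adjusted p = 0.000887 in limma). The Slurp1 fold was 41.0 without P10 array 1 and 10.2 without P10 array 2, because its P10 values differed. Ly6g6c rose from 59.6 ± 7.93 to 287 ± 103 (3.88-fold, adjusted p = 0.00361 in limma).

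**Figure D2:**
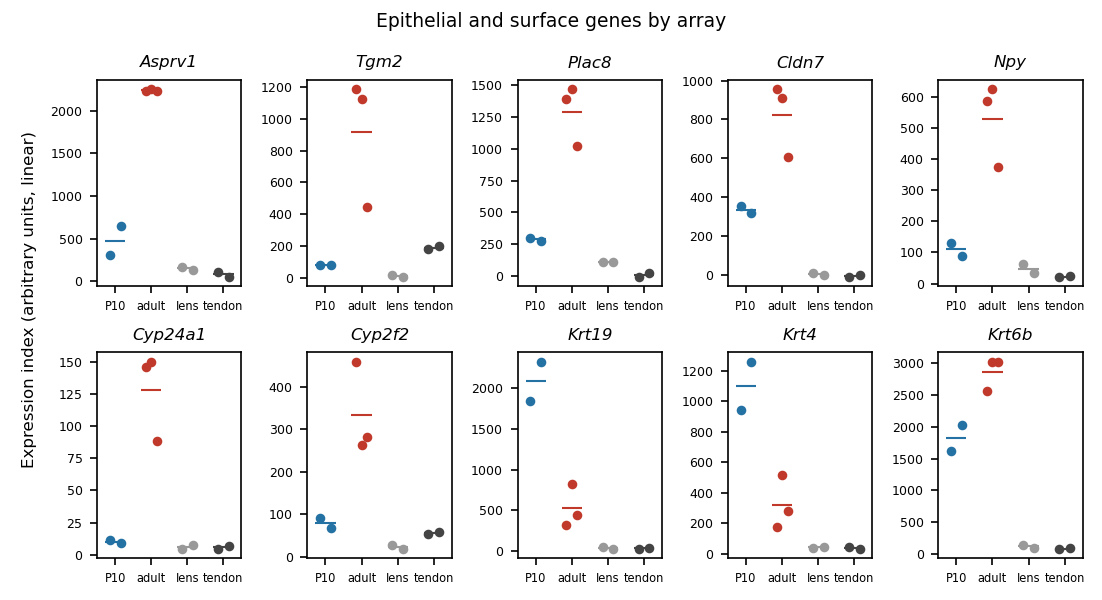
Expression index (linear scale, arbitrary units) of 10 epithelial and surface genes, 1 point per array, for 2 P10 cornea, 3 adult cornea, 2 lens and 2 tendon arrays, with a line at each group mean. All adult points lie above both P10 points for Asprv1, Tgm2, Plac8, Cldn7, Npy, Cyp24a1, Cyp2f2 and Krt6b, of which Krt6b did not pass the test, and below them for Krt19 and Krt4.

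Some keratins, the intermediate filament proteins of epithelia, were lower in the adult cornea. Krt12, the keratin of the corneal epithelium, was 6876 ± 617 (n = 2) at P10 and 7196 ± 948 (n = 3) in the adult, a log2 difference of 0.06 with a 95% interval of -0.38 to 0.50, whose sign changed without adult array 3, without P10 array 1, with array weights and with a replicate block. Krt6b, a keratin of stratified epithelium, was 1825 ± 283 and 2866 ± 270 (adjusted p = 0.121 in limma). Krt19, found in simple, conjunctival and limbal epithelium, read 1848 and 2329 at P10 and 319.6, 829 and 443 in the adult (4.13-fold lower, adjusted p = 0.0117 in limma). Krt4, a keratin of non-cornified mucosa, read 941 and 1259 at P10 and 175, 513 and 279 in the adult (3.56-fold lower, adjusted p = 0.0204 in limma). Krt19 and Krt4 were lower on every adult array, with adult array 2 the highest of the 3 for both. Of 16 keratins tested 3 were lower (Krt19, Krt4 and Krt17) and none was higher by limma, beside 3.76% of all genes lower and 0.737% higher. The list had 6 lower and 1 higher at an unadjusted p under 0.05, and 1 was called higher after trimmed mean scaling and with array weights. Its median log2 difference was -0.35 against -0.13 for all genes, and 4 of the 16 differences were positive. The Krt17 call was lost without either lens array, adult array 1 or 3, or either P10 array (adjusted p = 0.0639 to 0.273 in limma), and a second Krt17 probe set had a log2 difference of 0.04 (adjusted p = 0.974). The 4 conjunctival markers, which include both genes, summed to 3829 and 4673 at P10 and to between 928 and 2225 in the adult. The keratins Krt13, Krt4 and Krt19 carry most of that sum. Muc5ac, the mucin among them, overlapped, at 23.5 and 58.1 at P10 and 71.6, 31.0 and 61.5 in the adult. Whether cells of the conjunctiva took part was not tested. Without either P10 array no keratin was called (adjusted p = 0.0668 and 0.128 in limma for Krt19, 0.0956 and 0.198 for Krt4), although a second Krt19 probe set was also lower by -1.61 on the log2 scale (adjusted p = 0.0363 in limma).

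Imprinted growth genes fell together. Of 25 imprinted genes tested 9 were lower in the adult and 0 were higher by limma, against 3.76% of all genes lower. The counts were 14 and 0 at an unadjusted p under 0.05. The median log2 difference of the list was -0.60 against -0.13 for all genes. Cdkn1c, the imprinted cyclin-dependent kinase inhibitor p57, read 382 and 378 at P10 and 34.9, 58.7 and 34.3 in the adult (6.87-fold lower, adjusted p = 0.000306 in limma). Peg3, a paternally expressed zinc finger gene, read 230.2 and 246 at P10 and 31.5, 23 and 30.0 in the adult (5.77-fold lower, adjusted p = 0.000242 in limma). Meg3, a maternally expressed noncoding RNA, read 301 and 377 at P10 and 61.2, 34.8 and 57.2 in the adult (5.35-fold lower, adjusted p = 0.000887 in limma). In all 3 genes every P10 value was far above the highest adult value.

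Further probe sets of Meg3 and Peg3 moved the same way. The second Meg3 probe set was lower by -1.88 on the log2 scale (adjusted p = 0.000344 in limma), and both other Peg3 probe sets were lower, by -0.86 and -2.03 (adjusted p = 0.0308 and 0.0135 in limma). Igf2, the fetal insulin-like growth factor, read 989 and 1217 at P10 and 100.8, 151 and 136 in the adult (7.75-fold lower, adjusted p = 0.000293 in limma). Mest, of the same parental origin as Peg3, read 108 and 111 at P10 and 26.3, 26.0 and 22.4 in the adult (3.07-fold lower, adjusted p = 0.0114 in limma, but 0.101 and 0.111 without P10 array 1 or 2). Nnat, Ins2, Plagl1 and Dlk1 completed the called genes, of which Nnat was lost without P10 array 2 (adjusted p = 0.0617 in limma), Plagl1 without adult array 1 or either P10 array (0.0724 to 0.168) and Dlk1 also without either tendon array (0.0736 to 0.302). A second Plagl1 probe set did not follow the called one, with a log2 difference of 0.04 (adjusted p = 0.974 in limma) against -1.54. Not every listed gene moved, since Gnas, the most abundant of them after Dcn, was 1.51-fold lower at an adjusted p of 0.0622 in limma. The number of imprinted genes called lower lay between 7 and 13 under the other settings with all cornea arrays, and was 6 without P10 array 1 and 5 without P10 array 2.

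Levels in the other adult tissues did not follow a common pattern for these genes. Igf2 and Mest were lower in lens and tendon than in P10 cornea, with tendon at 220.2 and 209 for Igf2. Meg3 was as high or higher in tendon (542 and 616) and Cdkn1c was higher in lens (1364 and 906). Adult cornea was the lowest of the 4 groups by mean for Cdkn1c, Peg3, Nnat and Mest, with no test of that order.

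**Figure D3:**
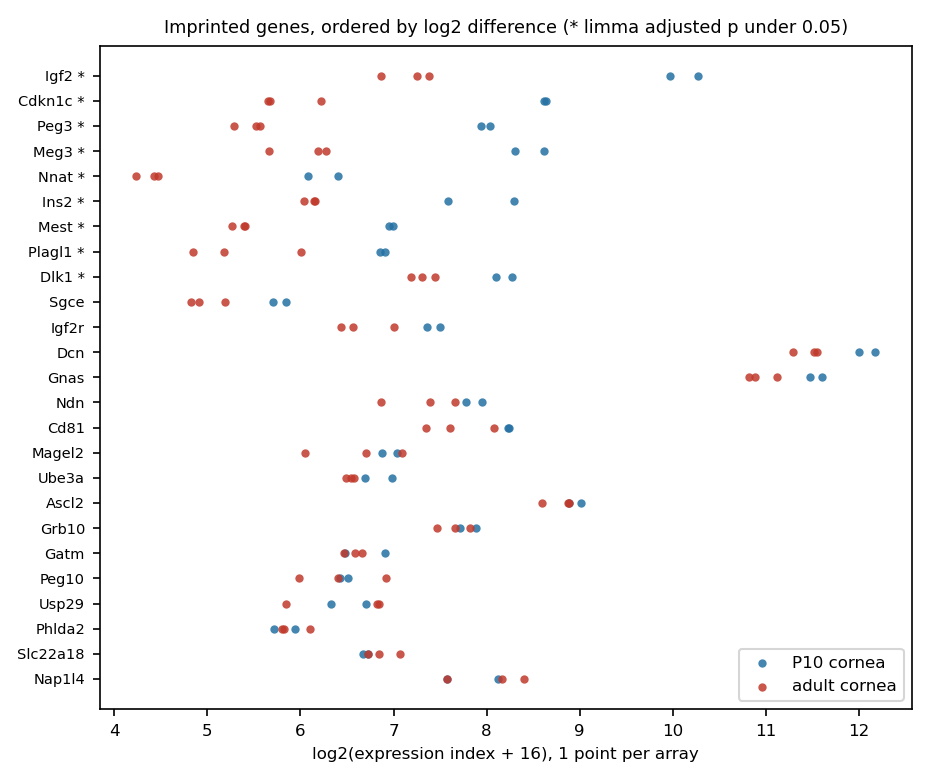
Log2(index + 16) of the 25 imprinted genes tested, 1 point per array, for 2 P10 (blue) and 3 adult (red) corneas, ordered from the largest fall at the top, with an asterisk at the 9 genes called by limma. The 2 ages are well separated at the top and overlap from Magel2 downward for most genes.

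Several genes of the contractile actin cytoskeleton fell. Of 64 genes of actin and contractility tested 8 fell and 3 rose (Crip1, Actb and the smooth muscle calponin Cnn1), beside 3.76% of all genes lower and 0.737% higher. The other 53 were not called, and the median log2 difference of the list was -0.18 against -0.13 for all genes. Smooth muscle actin, myosin and their regulators form the stress fibres of contractile cells and are direct targets of serum response factor (SRF), which binds the CArG box. Acta2, the smooth muscle actin that marks myofibroblasts and pericytes, read 195 and 372 at P10 and 8.60, 33.9 and 27.7 in the adult (7.59-fold lower, adjusted p = 0.00181 in limma). Myl9, a regulatory myosin light chain, read 205 and 299 at P10 and 72.7, 67.0 and 80.1 in the adult (2.96-fold lower, adjusted p = 0.00210 in limma). Tagln, an actin crosslinker of smooth muscle, read 117 and 166 against 47.9, 57.6 and 62.4 (2.17-fold lower, adjusted p = 0.0122 in limma). For all 3 genes P10 array 2 was the higher of its pair and the adult values lay close together.

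Tpm1, a tropomyosin, fell from 483 ± 66.2 (n = 2) to 161 ± 13.5 (n = 3; 2.81-fold, adjusted p = 0.00564 in limma). Pfn2, a profilin, fell from 149 ± 27.5 to 34.5 ± 3.41 (3.24-fold, adjusted p = 0.00402 in limma). Myh11, the smooth muscle myosin heavy chain, read 69.0 and 206 at P10 and 11.9, 20.2 and 33.3 in the adult (3.74-fold lower, adjusted p = 0.0209 in limma), and its fold was 6.04 without P10 array 1 and 2.31 without P10 array 2. Actg1, the cytoplasmic gamma actin, was 3811 ± 21.7 and 3925 ± 356, a log2 difference of 0.04 with a 95% interval of -0.34 to 0.42, and the sign changed without adult array 3 and with a replicate block. Tmsb4x, which sequesters actin monomers, was 4279 ± 93.7 and 5299 ± 108 (adjusted p = 0.460 in limma). Actn1 and Enah completed the falls, and their calls and those of Crip1 and Cnn1 were lost without either P10 array and some others in turn (adjusted p = 0.0529 to 0.318 in limma). Actb, 1 of the 3 rises, is not well supported, as its second probe set had a log2 difference of 0.54 (adjusted p = 0.296 in limma) and its call was lost without adult array 1 or 2 or any P10 or tendon array (0.0663 to 0.247). Without P10 array 2 the calls of Tagln, Tpm1, Pfn2 and Myh11 were lost (adjusted p = 0.0646 to 0.203 in limma), and that of Myh11 also without adult array 1 (0.0724).

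**Figure D4:**
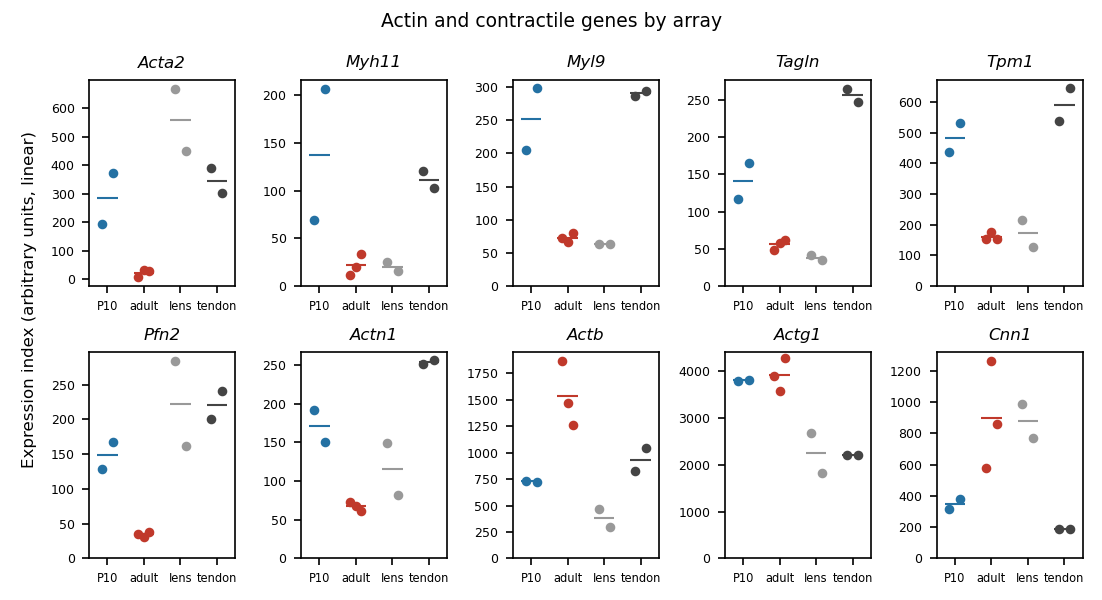
Expression index (linear scale, arbitrary units) of 10 actin and contractile genes, 1 point per array, for 2 P10 cornea, 3 adult cornea, 2 lens and 2 tendon arrays, with a line at each group mean. Acta2, Myh11, Myl9, Tagln, Tpm1, Pfn2 and Actn1 are lower on each adult than on each P10 array, Actg1 overlaps, and Actb and Cnn1 are higher.

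The 250 bases before the start of 3 changed genes are shown because each holds a CArG box, the 10-base sequence that opens with CC, closes with GG and has 6 A or T bases between. They come from RefSeq on GRCm38.p6 and run 5′ to 3′ on the gene's strand, with the box in capitals. Myl9 lies on the plus strand of chr2:156775214-156775463, Igf2 (1 of its 4 listed starts) on the minus strand of chr7:142661272-142661521 and Hopx (1 of 2 listed starts) on the minus strand of chr5:77115124-77115373.
Myl9: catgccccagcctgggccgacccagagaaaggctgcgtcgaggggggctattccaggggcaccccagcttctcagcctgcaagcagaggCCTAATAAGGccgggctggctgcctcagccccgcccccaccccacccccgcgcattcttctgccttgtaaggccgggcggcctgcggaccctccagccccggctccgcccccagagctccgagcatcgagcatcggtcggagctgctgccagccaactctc
Igf2: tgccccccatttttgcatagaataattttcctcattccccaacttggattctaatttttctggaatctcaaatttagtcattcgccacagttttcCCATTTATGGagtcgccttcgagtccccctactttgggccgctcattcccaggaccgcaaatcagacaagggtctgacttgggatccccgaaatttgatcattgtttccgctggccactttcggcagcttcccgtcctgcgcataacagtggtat
Hopx: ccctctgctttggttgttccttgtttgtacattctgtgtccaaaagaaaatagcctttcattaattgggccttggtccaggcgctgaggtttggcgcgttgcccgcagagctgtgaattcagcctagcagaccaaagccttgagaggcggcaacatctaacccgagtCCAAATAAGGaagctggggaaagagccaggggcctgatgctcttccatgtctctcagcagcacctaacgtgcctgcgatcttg
The box begins 161 bases before the start in Myl9, 155 in Igf2 and 83 in Hopx, and it reads as a CArG box on both strands. Hopx, a homeobox cofactor known to bind SRF and limit its action, was chosen after its values were seen and read 488 and 499.9 at P10 and 1360.1, 1339 and 771 in the adult (2.23-fold higher, adjusted p = 0.0283 in limma). The Hopx call was lost without either P10 or tendon array or adult array 1 or 2 (adjusted p = 0.0589 to 0.210 in limma). A CArG box was present before 7 of the 168 genes called lower that have a listed start (Actc1, Fermt2, Igf2, Lama2, Meg3, Myl9 and Nfix), before 1 of 32 called higher (Hopx) and before 87 of 4874 tested (1.78%), and in 1.47% of all 32851 windows. Of the 7, Fermt2 was not called without P10 array 2, and Actc1, Lama2 and Nfix without either P10 array or others in turn (adjusted p = 0.0616 to 0.314 in limma). Of the 8 falls in the actin and contractility list, Myl9 is among the genes with a box. Acta2, Myh11, Tagln, Tpm1, Pfn2, Actn1 and Enah are not, and only genes with a listed start were scanned. A part of SRF in the contractile falls was not tested. A match is a description of the sequence and not a bound site.

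Some genes for making and exporting matrix proteins also fell. The endoplasmic reticulum folds and modifies procollagen before secretion. By limma 6 of 62 genes of its folding and secretion list were lower and 0 were higher, beside 3.76% of all genes lower. The list had 17 lower and 0 higher at an unadjusted p under 0.05, and its median log2 difference was -0.32. The other 56 were not called. P3h3, a prolyl 3-hydroxylase family member, read 88.3 and 92.6 at P10 and 23.4, 21.7 and 22.7 in the adult (2.76-fold lower, adjusted p = 0.00153 in limma). Kdelr3, a receptor that returns proteins to the endoplasmic reticulum, read 74.1 and 81.8 at P10 and 13.2, 3.79 and -3.22 in the adult (4.47-fold lower, adjusted p = 0.00213 in limma). Ppic, the cyclophilin C prolyl isomerase, fell from 431 ± 24.4 (n = 2) to 105 ± 47.6 (n = 3; 3.89-fold, adjusted p = 0.00409 in limma, but 0.0516 without P10 array 1). Serpinh1, the collagen chaperone HSP47, fell from 1394 ± 79.8 to 451 ± 154 (3.15-fold, adjusted p = 0.0192 in limma, but 0.129 and 0.159 without P10 array 1 or 2). Pdia6 and Rcn1 completed the falls, and their calls were lost without either P10 array and, for Rcn1, also without adult array 1 or either tendon array (adjusted p = 0.0586 to 0.237 in limma). The called Pdia6 probe set was lower by -1.37 on the log2 scale, while its other probe sets had differences of 0.08 and -0.69 (adjusted p = 0.946 and 0.191 in limma). The lists of 38 heat shock and chaperone genes, 39 ribosomal and translation genes and 45 chromatin genes had 0 calls by limma. At an unadjusted p under 0.05 they had 5, 4 and 9 lower genes and 0 higher. The folding list kept 2 calls without P10 array 1 and 3 without P10 array 2.

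Matrix proteins other than collagens and proteoglycans had 17 falls and 0 rises among 54 tested by limma, beside 3.76% of all genes lower and 0.737% higher. They had 32 falls and 2 rises at an unadjusted p under 0.05 and a median log2 difference of -0.65. Sparcl1, an adhesion-modulating glycoprotein, read 227 on both P10 arrays and 67.1, 55.8 and 47.7 in the adult (3.35-fold lower, adjusted p = 0.00203 in limma). The list had 1 rise under a pseudocount of 64, with array weights and under each of the other scalings (quantile, trimmed mean and median). The number of falls in this list was 4 without P10 array 1 and 5 without P10 array 2. Of 29 genes of the kallikrein, cathepsin and serpin systems 3 were lower (Ctsg, Htra1 and Ctsk) and 0 were higher by limma, beside 3.76% of all genes lower and 0.737% higher. These systems had 9 lower and 1 higher at an unadjusted p under 0.05, and the median log2 difference was -0.17 against -0.13 for all genes. Ctsk, the collagen-cleaving cathepsin K, fell from 367 ± 36.0 to 130.3 ± 28.6 (2.65-fold, adjusted p = 0.00651 in limma, but 0.0961 and 0.0579 without P10 array 1 or 2). Htra1, a secreted serine protease, fell from 607 ± 26.9 to 190.3 ± 25.0 (3.03-fold, adjusted p = 0.00423 in limma, but 0.0580 and 0.0515 without P10 array 1 or 2). Itm2a, a membrane protein of differentiating cartilage and muscle, read 382 and 409 at P10 and 103, 60.8 and 72.7 in the adult (4.41-fold lower, adjusted p = 0.00348 in limma). These genes were lower on each adult array than on either P10 array, beside a lower sum of keratocyte markers that is mostly the 3 proteoglycans; the part of cell number was not tested.

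Among axon guidance and neural genes 5 of 35 fell (Icam5, Sema4a, Nrp1, Dpysl3 and Snap25) and 0 rose by limma, beside 3.76% of all genes lower and 0.737% higher. This list had 7 lower and 1 higher at an unadjusted p under 0.05. The Icam5 probe set read higher still on tendon, at 1262 and 1554. The calls of Dpysl3 and Snap25 were lost without adult array 1, either P10 array and, for Snap25, others in turn (adjusted p = 0.0505 to 0.348 in limma). Nrp1, a receptor for semaphorins and vascular endothelial growth factor, read 290.1 and 285 at P10 and 65.7, 91.3 and 60.6 in the adult (3.46-fold lower, adjusted p = 0.00269 in limma). A second Nrp1 probe set was lower by -1.16 on the log2 scale (adjusted p = 0.00814 in limma). RNA-processing genes were not among the lists and were picked out after their values were seen. Srsf1, a splicing factor, read 144 and 129 at P10 and 33.8, 42.6 and 47.3 in the adult (2.68-fold lower, adjusted p = 0.00370 in limma, but 0.0592 without P10 array 1). Ago2, the slicing Argonaute of microRNA silencing, read 136 and 177 against 49.9, 44.7 and 65.1 (2.49-fold lower, adjusted p = 0.00821 in limma, but 0.129 without P10 array 2). Sf3b1, a core splicing factor, was 5.39-fold lower (adjusted p = 0.00564 in limma, but 0.0625 and 0.0522 without P10 array 1 or 2), while its second probe set had a log2 difference of -0.20. Of 53 genes of the cell cycle and DNA replication 1 fell, Cdc25a, a phosphatase that activates cyclin-dependent kinases, and 0 rose by limma, beside 3.76% of all genes lower. That list had 7 lower and 0 higher at an unadjusted p under 0.05. The Cdc25a probe set read 783 and 357 at P10, 53.5, 76.1 and 48.3 in the adult and 1785 and 1840.4 on tendon, and whether it detects this gene was not tested.

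Clock and immune genes gave a few rises. Dbp, an output factor of the circadian clock, read 56.1 and 41.9 at P10 and 164, 334 and 187 in the adult (3.62-fold higher, adjusted p = 0.0299 in limma). Nr1d1, the clock repressor REV-ERB alpha, rose from 118 ± 20.7 (n = 2) to 329.6 ± 85.4 (n = 3; 2.54-fold, adjusted p = 0.0115 in limma). They were the 2 rises among 16 clock genes, beside 0.737% of all genes higher, with 0 falls by limma and 2 at an unadjusted p under 0.05. The labels give no hour of collection. Psmb8 and Psmb9, subunits of the immunoproteasome that cuts peptides for antigen presentation, rose from 90.6 ± 11.9 to 311 ± 90.5 (2.99-fold, adjusted p = 0.00598 in limma) and from 40.5 ± 0.572 to 104 ± 19.8 (2.10-fold, adjusted p = 0.0141 in limma). They were the only calls among 38 antigen presentation and interferon genes, beside 0.737% of all genes higher and 3.76% lower. The 49 proteasome and ubiquitin genes had 0 calls by limma, with 1 higher and 3 lower at an unadjusted p under 0.05. Without P10 array 2 all 4 calls were lost (adjusted p = 0.0861 to 0.239 in limma). Without P10 array 1 those of Dbp, Nr1d1 and Psmb9 were lost (0.0617 to 0.144), that of Psmb9 also without adult array 1 (0.0512), and that of Dbp also without adult array 2 or either tendon array (0.0603 to 0.0639).

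**Figure D5:**
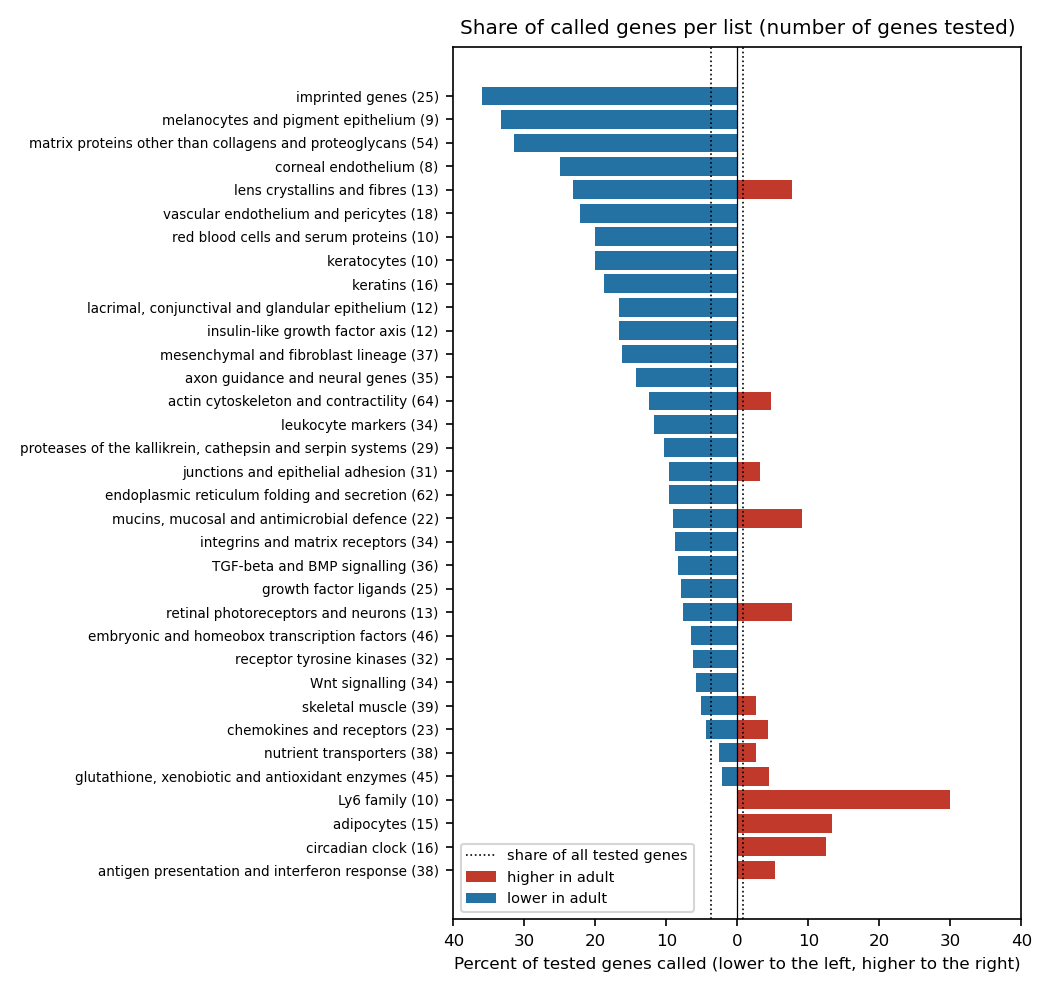
Percent of the tested genes of each list called lower (left, blue) or higher (right, red) in the adult, for lists with at least 2 calls other than collagens and proteoglycans, with dotted lines at the shares of all tested genes, 3.76% lower and 0.737% higher. The imprinted list has the largest share of falls and the Ly6 list the largest share of rises.

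Some markers of other tissues differed between the preparations. Pmel and Tyrp1, pigment cell genes, read 429.6 and 1647 (Pmel) and 117 and 432 (Tyrp1) at P10, against 128, 130.4 and 183 and 7.70, 26.7 and 25.1 in the adult. Pmel was 5.33-fold lower (adjusted p = 0.0128 in limma) and Tyrp1 7.05-fold lower (adjusted p = 0.0200 in limma), with P10 array 2 clearly above P10 array 1 for both. Without P10 array 2 the folds were 2.76 for Pmel and 3.85 for Tyrp1, and without P10 array 1 they were 10.3 and 12.9. The Tyrp1 call was lost without P10 array 2 (adjusted p = 0.212 in limma) or adult array 1 (0.0718). Of 10 red cell and serum protein genes tested, 2 were lower in the adult (Hbb-b2 and Hba-a1) and 0 were higher by limma, beside 3.76% of all genes lower. The median log2 difference of that list was -0.12 against -0.13 for all genes. Hbb-b2 read 724 and 1018 at P10 and 232, 182 and 324 in the adult (3.42-fold lower, adjusted p = 0.00431 in limma, but 0.0737 without P10 array 2). Alas2, a red cell marker, overlapped, at 73.3 and 86.1 at P10 and 69.1, 85.3 and 72.1 in the adult. Cdh5, the cadherin of vascular endothelium, read 38.2 and 54.4 at P10 and 0.710, 7.37 and -6.02 in the adult (3.35-fold lower, adjusted p = 0.00368 in limma), a call not kept without P10 array 2. The 5 vascular markers together summed to 236 and 370.2 at P10 and to between 234 and 346 in the adult. Kdr, which overlapped between the ages, was the largest part of that sum, and Pecam1 was below 0 on both P10 arrays and counted as 0. Tek overlapped, and Tie1 read 34.2 and 41.5 at P10 and 1.02, 13.5 and 9.25 in the adult. Pecam1, Tek and Tie1 were not tested by limma. Of 18 vascular endothelium and pericyte genes tested 4 were lower and 0 higher by limma, beside 3.76% of all genes lower. Their median log2 difference was -0.48 against -0.13 for all genes. Acta2, Myh11 and Rgs5, also pericyte genes, fell with Cdh5, the Rgs5 call being lost without any 1 of 8 arrays (adjusted p = 0.0506 to 0.365 in limma), and the part of vessels in the contractile falls was not tested. Lens genes were called in both directions, with Crybb2 higher and Cryge, Crygd and Bfsp1 lower of 13 tested, beside 0.737% of all genes higher and 3.76% lower. The 4 defining lens markers summed to 2160 and 3864 at P10 and to between 2215 and 3985 in the adult. A second Crybb2 probe set had a log2 difference of -0.09 (adjusted p = 0.912 in limma). The 3 mast cell markers summed to 1133 and 1364 at P10 and to between 688 and 947 in the adult, with no overlap. Cma1, a mast cell chymase, was the only 1 of them called, while Kit and Cpa3 overlapped between the ages. A second Cma1 probe set had a log2 difference of -0.50 (adjusted p = 0.268 in limma). The 4 lens calls and that of Cma1 were each lost without P10 array 2 and others in turn (adjusted p = 0.0537 to 0.425 in limma). Photoreceptor markers ranged from 321 on adult array 1 to 1657 on adult array 3, wider than the 872 and 1388 at P10.

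Several of the largest falls were of probe sets that read higher still on tendon. Icam5, a neuronal adhesion molecule, read 602 and 459 at P10, 15, 57.3 and 14.9 in the adult and 1262 and 1554 on tendon (13.1-fold lower in adult than in P10 cornea, adjusted p = 0.000344 in limma). Cyp17a1, a steroidogenic enzyme, read 331 and 209.7, then 19.1, 49.4 and 24.6, and 1117 and 1122 on tendon (6.18-fold lower, adjusted p = 0.000846 in limma), but its second probe set had a log2 difference of -0.01. Dach1, a transcriptional cofactor, and Ctsg, the leukocyte protease cathepsin G, had adult values down to -44.7 and -110.5, so no fold is given, and tendon values of 1823 and 2055 and of 1231 and 1424. Of the 230 genes lower in adult than in P10 cornea 139 (60.4%) had a tendon mean above the P10 mean, against 40.3% of all genes, and 53 (23%) had a lens mean above it, against 39.0%. Whether such probe sets detect other transcripts was not tested. Among second probe sets of the same genes, 44 of 50 had the same sign for genes called lower and 6 of 7 for genes called higher, against 679 of 1067 for genes not called. Of them, 14 and 1 were called in the same direction and none in the opposite one. The counts against tendon and lens and those of second probe sets include collagens and proteoglycans.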

How the data were processed

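RNA was hybridised to mouse arrays, and the authors deposited 1 linear intensity value per probe set, an expression index in arbitrary units. Per the labels' design text, Microarray Suite 5.0 gave signals and detection calls and dChip gave normalized model-based indices, and the submitters' processing notes name MAS5. No label says which program made the deposited values, and every array holds values below 0. Of 12488 probe sets, 66 controls were left out. Of the 12422 others 10833 carry 1 gene symbol, 396 several and 1193 none.

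Tests used log2 of the value, floored at 0, plus a pseudocount of 16. Probe sets that reached the array median on at least 2 of 9 arrays were tested (8154, for 6109 genes, the one with the highest cornea mean standing for its gene). A group-means model of all 9 arrays was fitted with limma 3.58.1 in R 4.3.3 with a mean-dependent variance prior, which gave 5 residual and 4.933 prior degrees of freedom, and p-values were two-sided and Benjamini-Hochberg adjusted at 0.05. A 95% interval uses the same degrees of freedom. The script was tested on simulated data. The number of arrays limits the precision.

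Genes were named by a rule: the 20 largest rises and falls of at least 2-fold without overlap, called members of 55 functional lists, each list's 3 most abundant members and other called genes of at least 4-fold. Those that matter most are in the text. The gene members and lists were chosen with earlier results of these data known. Alternatives covered pseudocounts, filters, scalings, the fit of only the cornea arrays, array weights, a replicate block, the methods' test and leaving out each array.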

Additional observations from a re-analysis of the deposited data

How the results depend on the processing

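The naming rule gave 137 called genes, of which 34 were called in every fit without 1 array. Of the 78 of them in the text 25 were, and 0 reversed. Of these 78, 40 were lost without P10 array 1, 50 without P10 array 2, 35 in the fit of only the cornea arrays and 18 with a pseudocount of 1. The number of probe sets higher in the adult, 57, became 91 after quantile normalization, 86 after trimmed mean scaling, 32 with only the cornea arrays and 281 with array weights, and lay between 16 and 84 without 1 array. The number lower, 316, became 184 after median centring, 162 with only the cornea arrays and 1069 with array weights, and lay between 68 and 342 without 1 array. The array weights were 2.86 for adult array 1 and 0.319 and 0.307 for adult arrays 2 and 3. The adult level in that fit thus came mostly from adult array 1, the array that stood apart in RNA quality. The methods' criteria gave 29 higher and 194 lower. The methods' t-test gave 129 and 933 at an unadjusted p under 0.05 and 0 and 0 after Benjamini-Hochberg. The cause was not tested.

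The median of all genes moved from -0.13 to 0.02 with quantile normalization, -0.004 with trimmed means and 0.06 with centring. With the replicate number as a block, which leaves adult array 3 without a pair, 79 were higher and 302 lower. Deviations of same-numbered arrays correlated at 0.20 and -0.36 over probe sets, so the numbers were not taken to pair the samples. The deviations of adult array 3 and P10 array 2 correlated at 0.51, and those of adult array 2 and P10 array 1 at 0.36. By level, adult array 2 correlated at 0.902 with P10 array 1 and at 0.869 with adult array 3. Adult array 3 correlated at 0.896 with P10 array 2. Adult array 1 correlated at 0.927 and 0.923 with adult arrays 2 and 3. The source of these links across ages was not tested. The differences of Actg1, Krt12, Aldh3a1 and Aldh1a1, none of them called, changed sign. Actg1 was -0.027 with the replicate block and -0.027 to 0.10 without 1 array, and Krt12 was -0.023 with array weights, -0.045 with the replicate block and -0.045 to 0.15 without 1 array. Aldh3a1 was 0.14 with trimmed means, 0.18 with centring and -0.11 to 0.076 without 1 array, and Aldh1a1 was -0.26 to 0.58 without 1 array. Averaging the probe sets of a gene was computed only for list medians. Values near 0 and probe sets with negative indices give no reliable fold, which holds for the folds printed for Dsc3, Kdelr3 and Cdh5.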
